A study of Mus musculus with 4 samples.

Results

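A set of 10 genes of the glucocorticoid response was described in liver RNA of mice lacking Nrg4, a secreted growth factor that signals through ErbB receptors, and of wild-type mice. They were the receptor Nr3c1, the activating enzyme Hsd11b1 and the target genes Zbtb16, Lpin1, Fkbp5, Tsc22d3, Tat, Sgk1, Dusp1 and Klf9. Each gene was read from the probe set that the platform annotation pairs with that symbol alone, and the rule of keeping the brightest probe set had nothing to choose, since each of the 10 genes had 1 such probe set. The 10 genes were 10 of 22180 genes with a single-symbol probe set, and all 10 were among the 12458 genes bright enough to be tested. Differences between knockout (KO) and wild type (WT) in these same arrays were known when the genes were chosen, above all those of Zbtb16 and Lpin1. Their differences are therefore given as a description, without a p-value, and are no evidence for the choice.

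All mice were male and ate a non-alcoholic steatohepatitis (NASH) diet (Research Diets D09100301) for 20 weeks from 3 months of age. Livers were collected from fed animals, and RNA was hybridised to Affymetrix Mouse Gene ST 2.1 arrays. There were 2 WT pools and 2 Nrg4 knockout pools, 1 array for each, and both genotypes had the diet in common, so no liver on another diet was compared. The number of animals in a pool, the strain, the design of the Nrg4 allele and the hour of collection are unstated in those sources that were used.

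Glucocorticoids reach the liver as circulating hormone, mainly corticosterone in mice, and as hormone regenerated inside the hepatocyte by Hsd11b1. Hormone releases the receptor Nr3c1 from a chaperone complex, and the receptor then enters the nucleus, binds DNA and changes transcription. In liver this raises enzymes of amino acid breakdown and glucose production, while proteins such as Fkbp5, Tsc22d3 and Dusp1 restrain the receptor or inflammatory signalling. Hormone secretion follows the time of day and rises with fasting and stress.

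The labels were first checked against Nrg4, and liver markers were read beside it. The Nrg4 probe set gave log2 values of 2.54 and 2.30 in WT pools, while each KO pool read 0.93. The KO level was lower by -1.49 ± 0.20 (SE, n = 2 pools each; limma, adjusted p = 0.181), and the position of the probe set relative to the deletion was not examined. The array medians ran from 0.52 to 0.64, and pools of 1 genotype correlated at 0.979 (WT) and 0.975 (KO) across tested genes, against 0.966 to 0.973 between genotypes. All 9 measured hepatocyte markers were tested and bright; their mean log2 level was 9.48 and 9.47 in WT and 9.40 and 9.41 in KO, so both KO pools lay slightly below both WT pools. The 8 stellate cell markers averaged 4.38 and 4.37 in WT against 4.64 and 4.78 in KO. The pools were separate for 3 of them, all higher in KO (22.2% of all tested genes): Pdgfrb (1.14), Col1a1 (0.71) and Col3a1 (0.68). The other 5 overlapped between genotypes, from -0.11 for Reln to 0.23 for Dcn. In whole liver RNA, fewer cells of a type and less RNA per cell cannot be told apart.

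Zbtb16 and Lpin1 had by far the largest differences of the 10 genes, and both were lower in KO livers. Zbtb16 encodes PLZF, a zinc finger transcription factor that glucocorticoids induce strongly in many cell types. Its log2 level was 5.20 in WT pool 1, 5.42 in WT pool 2, 2.96 in the first KO pool and 2.88 in the second. The genotypes were separated by 2.24 log2 units, the distance from the lower WT pool to the higher KO pool, while pools of 1 genotype stood 0.22 (WT) and 0.08 (KO) apart. The mean difference was -2.38 ± 0.20 (SE, n = 2 pools each), which is 5.22-fold lower, and only 11 of the 12458 tested genes had a more negative one. The KO mean still lay 2.38 above the table's median probe set, well off the dim end of the scale.

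Lpin1 encodes lipin-1, which turns phosphatidic acid into diacylglycerol on the way to triglyceride and also acts in the nucleus with the coactivator Ppargc1a and the receptor PPAR-alpha. Glucocorticoids and fasting raise it in liver. Its log2 level was 6.87 and 7.16 in WT and 5.37 and 5.54 in KO. Again every KO pool lay below every WT pool, with a gap of 1.33 against 0.29 between the WT pools and 0.17 between the KO pools. The mean difference was -1.56 ± 0.21 (SE, n = 2 pools each), or 2.95-fold lower, and 35 tested genes had a more negative one.

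**Figure D1:**
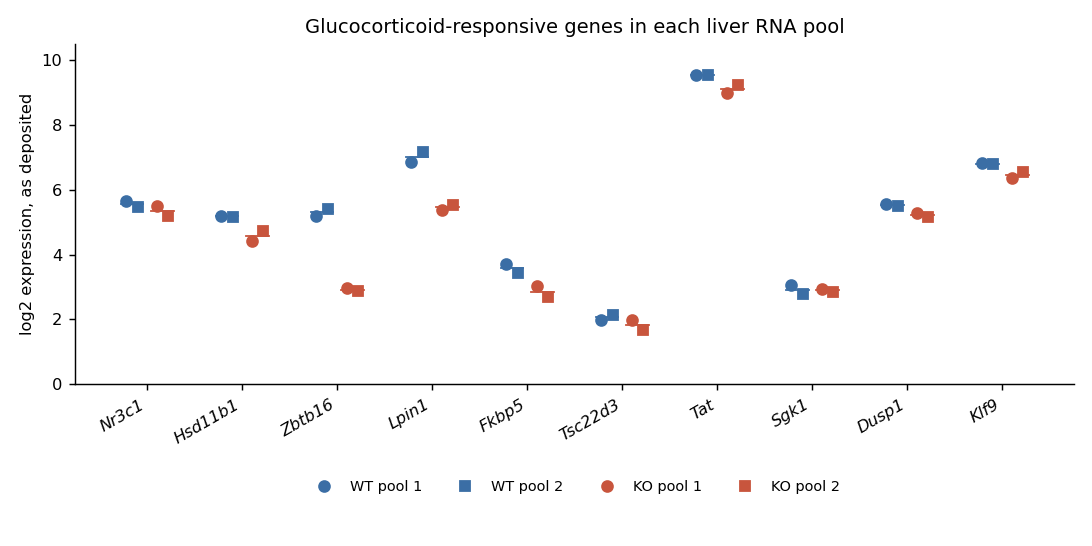
Log2 expression (as deposited, vertical axis) of the 10 genes in each liver RNA pool; circles are pool 1, squares pool 2, blue WT, red KO, and short lines are the means of 2 pools. The means of Zbtb16 are 5.31 and 2.92 and those of Lpin1 7.02 and 5.46 (WT and KO), while the WT and KO points of Sgk1 and Nr3c1 lie among each other; heights of different genes are not comparable.

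The genes that set hormone supply and sensing differed between genotypes by unequal amounts. Nr3c1, the receptor itself, read 5.64 and 5.47 in WT and 5.49 and 5.18 in KO. KO pool 1 lay between the WT pools, so the genotypes overlapped, and the difference was -0.22 ± 0.21 (SE). Leaving out 1 pool moved it from -0.37 (without KO pool 1) to -0.07 (without KO pool 2). Hsd11b1, the enzyme of the endoplasmic reticulum that regenerates active hormone, read 5.196 and 5.18 in WT and 4.44 and 4.72 in KO. Both KO pools were lower than both WT pools, which were 0.02 apart, and the difference was -0.61 ± 0.205 (SE), or 1.52-fold lower.

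Of the feedback and anti-inflammatory targets, Fkbp5 had the largest difference. Fkbp5 is a co-chaperone that lowers the hormone affinity of the receptor and is itself induced by it. It read 3.72 and 3.44 in WT and 3.02 and 2.70 in KO, with no overlap. The difference was -0.71 ± 0.22 (SE), or 1.64-fold lower. Dusp1, a phosphatase that switches off MAP kinases, read 5.57 and 5.498 in WT and 5.29 and 5.15 in KO. The pools were again separate, by 0.21, and the difference was -0.32 ± 0.19. Tsc22d3, the leucine zipper protein GILZ, read 1.995 and 2.13 in WT and 1.98 and 1.67 in KO. KO pool 1 lay only 0.015 below the lower WT pool, so its genotypes were barely apart, at a difference of -0.24 ± 0.21 that was -0.08 without KO pool 2.

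Among the metabolic and signalling targets, Tat and Klf9 were lower in both KO pools and Sgk1 was not. Tat, tyrosine aminotransferase, performs the first step of tyrosine breakdown and is a classical glucocorticoid-induced liver enzyme. It read 9.55 and 9.54 in WT and 9.001 and 9.24 in KO. The WT pools were 0.01 apart, both KO pools were lower, and the difference was -0.43 ± 0.199 (SE), or 1.34-fold lower. Klf9, a Krüppel-like transcription factor, read 6.83 and 6.79 in WT and 6.37 and 6.56 in KO, a difference of -0.34 ± 0.19 with separate pools. Sgk1, the serum and glucocorticoid regulated kinase, read 3.06 and 2.78 in WT and 2.94 and 2.86 in KO. Both KO pools lay between the WT pools, and the difference of -0.02 ± 0.204 took the other sign without WT pool 1 (0.11) and without KO pool 2 (0.02).

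Read together, the 10 differences were all below 0, with a median of -0.38. Over all 12458 tested genes the median was 0.01 and 48.4% of genes were below 0. For 8 of the 10 genes both KO pools were lower than both WT pools, as they were for 19.5% of all tested genes. Without Zbtb16 and Lpin1 the other 8 genes had a median of -0.33, and 6 of them had separate pools. None of the 10 passed limma's adjusted threshold of 0.05 (0.0241% of tested genes passed as lower in KO), and 4 had an unadjusted p under 0.05 with a lower KO level (3.92% of tested genes). With a prior variance that follows intensity, limma called Zbtb16 and Lpin1, and 0.698% of tested genes, as lower. Because the genes were chosen with this comparison known, nothing is read from these shares.

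**Figure D2:**
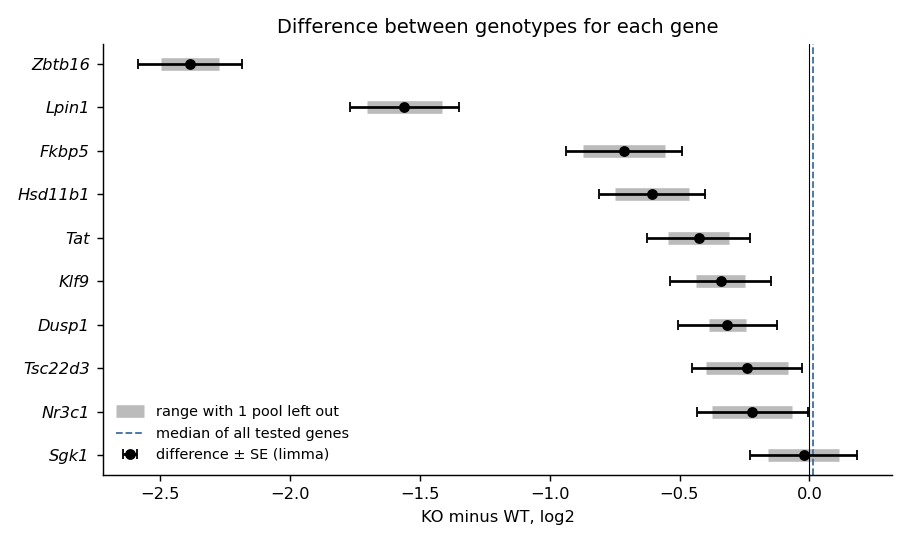
KO minus WT on the log2 scale (horizontal axis) for each of the 10 genes, with the SE of the limma fit as whiskers and the range over fits with 1 pool left out as a grey bar; the dashed line is the median of all tested genes. The differences run from -2.38 for Zbtb16 to -0.02 for Sgk1, the one gene whose grey bar crosses 0.

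The KO pools did not share an order across the genes. KO pool 1 was the lower for Hsd11b1, Lpin1, Tat and Klf9, and KO pool 2 was the lower for Nr3c1, Zbtb16, Fkbp5, Tsc22d3, Sgk1 and Dusp1. The distance between KO pools was 0.29 for Hsd11b1, 0.24 for Tat and 0.32 for Fkbp5. Set against the WT mean of each gene, the median over the 10 genes was -0.49 for the first KO pool and -0.39 for the second, beside -0.02 and 0.04 over all tested genes.

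**Figure D3:**
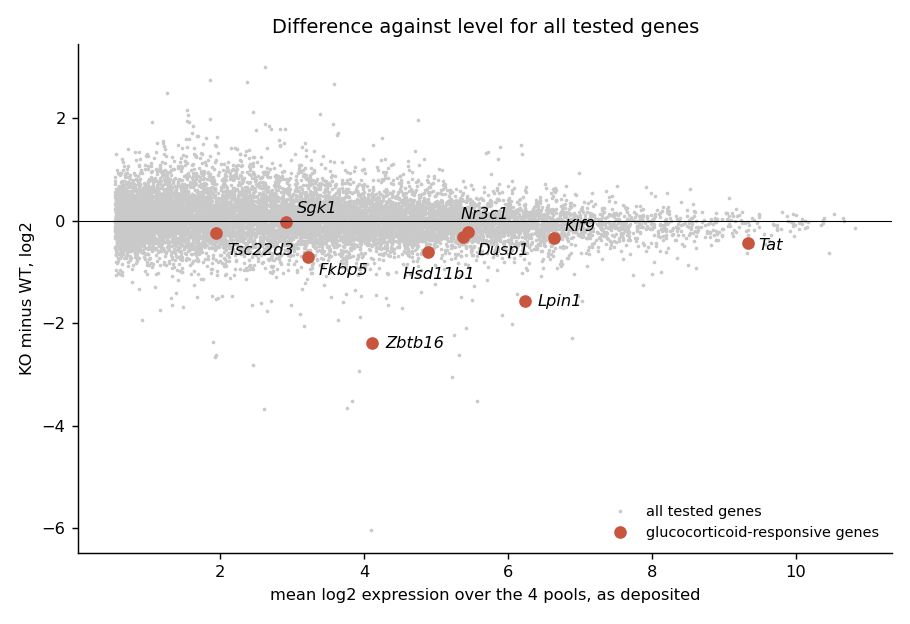
KO minus WT (log2, vertical axis) against the mean log2 level over the 4 pools (horizontal axis) for all 12458 tested genes (grey), with the 10 glucocorticoid-responsive genes in red. Zbtb16 at -2.38 and Lpin1 at -1.56 lie below most grey points at their level, and the other 8 lie inside the cloud or at its lower edge, from -0.71 to -0.02.

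Promoter sequence was examined because the receptor acts by binding DNA. The receptor's palindrome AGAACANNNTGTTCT and its hexamer AGAACA, on either strand, were searched in the 250 bases before each RefSeq transcription start (build GRCm38.p6); each palindrome holds 2 of the hexamer matches, 1 on each strand. RefSeq promoters of 8 of the 10 genes were searched, 15 promoters in all, and no promoter of Nr3c1 or Zbtb16 was included. The hexamer was found in 5 of the 15 promoters, belonging to Lpin1, Sgk1 and Tsc22d3, and in 16.1% of all 32851 promoters. Sgk1 alone supplied 6 of the 15 promoters and 3 of the 5 with the hexamer. Counted by gene, 3 of 8 genes held the hexamer, and 4912 of 27025 genes over all promoters. In the fixed list of other receptor targets 1 of 27 promoters held it (3.70%). The palindrome was found in 1 promoter of Sgk1 and in 3 of all promoters (0.00913%). The following 4 sequences are shown for the gene with the second largest difference, the gene with the smallest, 1 of the 3 Tsc22d3 starts, and the target with the third largest difference, which held no match. They run 5′ to 3′ on the strand of the gene and end at the base before the start, with the hexamer in capitals.
Lpin1 (chr12:16610967-16611216, minus strand): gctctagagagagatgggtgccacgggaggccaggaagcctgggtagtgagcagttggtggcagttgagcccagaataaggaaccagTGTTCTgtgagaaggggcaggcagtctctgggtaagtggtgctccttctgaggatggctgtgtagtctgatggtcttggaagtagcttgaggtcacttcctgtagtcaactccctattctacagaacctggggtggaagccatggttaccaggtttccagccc
Sgk1 (chr10:21993640-21993889, plus strand): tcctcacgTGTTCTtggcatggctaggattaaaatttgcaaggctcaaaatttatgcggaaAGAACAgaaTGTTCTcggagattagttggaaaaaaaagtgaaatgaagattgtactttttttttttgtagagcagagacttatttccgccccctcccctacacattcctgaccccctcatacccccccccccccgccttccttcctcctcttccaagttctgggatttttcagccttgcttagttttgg
Tsc22d3 (chrX:140600523-140600772, minus strand): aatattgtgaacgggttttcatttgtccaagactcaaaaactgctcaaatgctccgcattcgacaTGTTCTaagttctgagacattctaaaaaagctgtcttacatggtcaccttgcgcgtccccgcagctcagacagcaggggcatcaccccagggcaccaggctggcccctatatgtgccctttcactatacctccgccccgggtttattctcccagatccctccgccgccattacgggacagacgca
Fkbp5 (chr17:28486150-28486399, minus strand): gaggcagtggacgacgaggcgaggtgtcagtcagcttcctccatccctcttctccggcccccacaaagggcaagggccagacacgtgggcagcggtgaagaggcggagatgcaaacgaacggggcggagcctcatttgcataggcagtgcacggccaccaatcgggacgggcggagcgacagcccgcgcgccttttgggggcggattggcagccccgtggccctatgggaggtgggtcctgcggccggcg

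In the Lpin1 promoter the capitals mark 1 hexamer on the other strand, beginning 163 bases before the start. In the Sgk1 promoter they mark the palindrome, beginning 189 bases before the start, and 1 more hexamer 242 bases before it. This was 1 of 6 promoters listed for Sgk1, and the array does not tell which start was used. The gene with the full palindrome was thus the one with a difference of -0.02, while Fkbp5, Hsd11b1, Tat, Dusp1 and Klf9, with no match in these windows, differed by -0.71 to -0.32. The windows are short and receptor sites are often distant, so a match or its lack says nothing on binding.

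The partners of the receptor and the enzymes that handle its hormone lay on both sides of 0. Of 22 listed genes 18 had a single-symbol probe set and 16 were tested: 10 were below 0 and 6 above, with a median of -0.04. Limma was fitted with a prior variance shared by all genes and with one that follows intensity. No gene of the list passed its adjusted threshold with either variance model. With the shared variance, 1 lower and 2 higher genes had an unadjusted p under 0.05, as did 3.92% (lower) and 6.37% (higher) of all tested genes. The genotypes were separate for 5 genes lower and 4 higher in KO, against 19.5% and 22.2% of all tested genes. Nr3c2, the mineralocorticoid receptor, which also binds corticosterone, read 1.83 and 2.52 in WT and 3.35 and 2.92 in KO (difference 0.96 ± 0.30 SE; limma, adjusted p = 0.394). The Nr3c2 difference was 0.66 with its probe sets averaged and 0.61 to 1.30 with 1 pool left out. Akr1d1, a reductase that inactivates steroid hormones and serves bile acid synthesis, read 6.66 and 6.57 in WT and 5.96 and 6.11 in KO (-0.58 ± 0.19; limma, adjusted p = 0.415). Both genes thus had separate pools without a call. The coactivator Ncoa1 was at 0.594 ± 0.23 and the co-chaperone Stip1 at -0.47 ± 0.27 (limma, adjusted p = 0.474 and 0.621). Stip1 ranged from -0.76 to -0.18 and Ncoa1 from 0.37 to 0.82 with 1 pool left out. H6pd, which supplies Hsd11b1 with its cofactor, was at -0.09, and Serpina6, the corticosteroid-binding globulin of plasma, at -0.06.

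Other genes that glucocorticoids are known to raise also lay on both sides of 0, more of them below. Of 28 listed genes 27 were tested, 20 of them below 0 (48.4% of all tested genes were) and 7 above, with a median of -0.16. None was called by limma at the adjusted threshold. Genes with an unadjusted p under 0.05 numbered 1 lower and 3 higher, beside 3.92% and 6.37% of all tested genes. With a variance that follows intensity 1 was called as lower, Pck1, beside 0.698% of all tested genes. The pools were separate for 13 genes lower and 5 genes higher in KO, against 19.5% and 22.2% of all tested genes. Pck1, the phosphoenolpyruvate carboxykinase of glucose production, read 9.55 and 9.73 in WT and 8.96 and 9.05 in KO, 1.55-fold lower (-0.63 ± 0.195 SE; limma, adjusted p = 0.394, or 0.012 with a variance that follows intensity). Rgs2, a regulator of G protein signalling, lay on the other side, with 4.001 and 4.38 in WT and 5.15 and 5.12 in KO (0.94 ± 0.22; limma, adjusted p = 0.297). Averaging its probe sets gave 0.397. The cell cycle inhibitor Cdkn1a was at 0.87 ± 0.24 and the siderophore-binding protein Lcn2 at 0.62 ± 0.202 (limma, adjusted p = 0.364 and 0.405). Per1, a clock gene that the receptor induces directly, read 4.96 and 5.01 in WT and 5.14 and 4.77 in KO, so its genotypes overlapped.

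**Figure D4:**
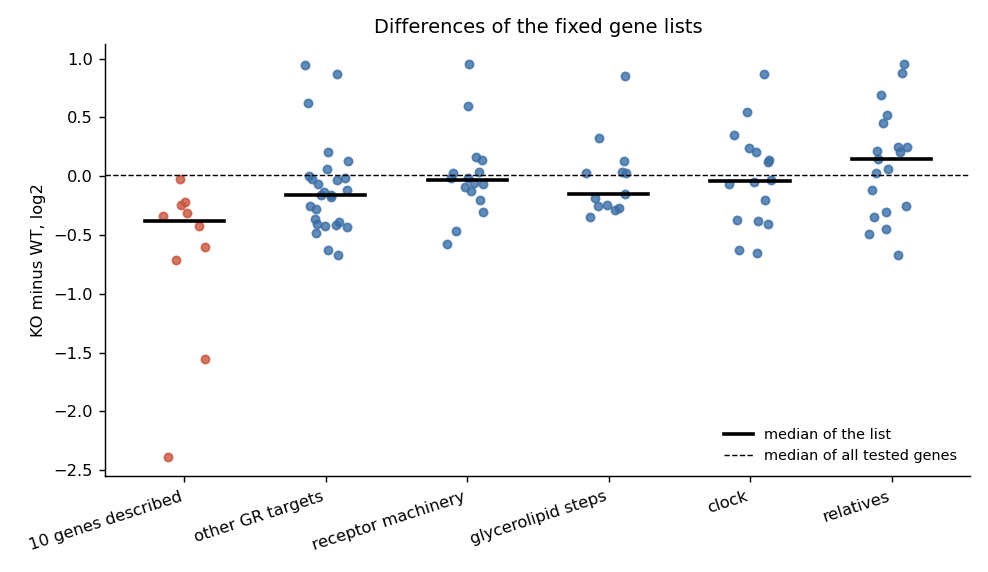
KO minus WT (log2, vertical axis) for every tested gene (points) of the 10 genes described, in red, and of 5 fixed lists, in blue; black bars are list medians and the dashed line is the median of all tested genes. The medians are -0.38 for the 10 genes, -0.16 for other receptor targets, -0.04 for the receptor machinery, -0.15 for glycerolipid steps, -0.04 for clock genes and 0.15 for relatives, the last of which was -0.033 to 0.091 with 1 pool left out.

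The other enzymes of glycerolipid synthesis differed less between genotypes than Lpin1 did. All 13 listed enzymes around it were tested, 7 below 0 and 6 above, with a median of -0.15 and a range from -0.35 to 0.86. None was called by limma with either variance model, and 1 higher gene had an unadjusted p under 0.05 (6.37% of all tested genes). That gene, Agpat1, which adds the second acyl chain, read 1.57 and 1.37 in WT and 2.02 and 2.63 in KO (0.86 ± 0.27 SE; limma, adjusted p = 0.394). The acyltransferase Gpat4 was at -0.35 ± 0.19, Dgat2, which completes triglyceride, at -0.27 ± 0.196. Mogat2 read 0.25 and 0.55 in WT and 0.66 and 0.79 in KO; its WT mean stood at -0.14 relative to the table's median, so it passed the brightness filter only through the KO pools. The list median was 0.026 when the probe sets of a gene were averaged. The difference between Lpin1 and these enzymes was not tested.

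Relatives of the genes by sequence or family gave a mixed picture, with 12 of 19 tested relatives above 0, 7 below and a median of 0.15 that was -0.033 to 0.091 with 1 pool left out. No relative was called by limma with either variance model, and 3 higher ones had an unadjusted p under 0.05, beside 6.37% of all tested genes. Lpin2, the other lipin well expressed in liver, read 7.46 and 7.44 in WT and 7.19 and 7.21 in KO, a difference of -0.25 ± 0.19 (SE) with separate pools. Lpin3 read 1.85 and 1.25 in WT and 1.52 and 1.64 in KO; its difference of 0.03 was -0.05 after quantile normalization and -0.02 with arrays centred on their medians. Among zinc finger relatives of Zbtb16, Zbtb20 was at -0.11 and Zbtb7a at 0.25, which was 0.058 to 0.43 with 1 pool left out. Zbtb32, whose WT mean lay below the table's median and which was tested only through the KO pools, overlapped between genotypes. Its difference of 0.15 counted among the 12 above 0 and was itself the list median. That median was 0.046 with a stricter filter on dim genes. Fkbp4, the co-chaperone that favours receptor activity, read 5.51 and 5.43 in WT and 5.16 and 5.17 in KO, at -0.30 ± 0.19.

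The 3 relatives with the smallest p, Klf6, Nr3c2 and Sgk3, lay above 0. Klf6, a Krüppel-like factor induced by injury, read 4.19 and 3.92 in WT and 4.99 and 4.87 in KO (0.88 ± 0.205 SE; limma, adjusted p = 0.297). Sgk3, a lipid-regulated kinase close to Sgk1, read 3.83 and 3.98 in WT and 4.44 and 4.41 in KO (0.52 ± 0.19; limma, adjusted p = 0.455). Dusp2 was at -0.49 ± 0.203, Dusp4 at 0.69 ± 0.29 and Dusp6 at 0.06, while Tsc22d1 stood at 0.45 (0.16 with its probe sets averaged) and Tsc22d2 at 0.202. Klf15, a receptor target that drives amino acid breakdown, was at -0.67 ± 0.28, Klf10 at -0.45, Klf13 at -0.35 and Klf4 at 0.24. With 1 pool left out Klf15 ranged from -1.03 to -0.31 and Klf10 from -0.67 to -0.23. The KO values of Klf13 were 1.74 in pool 1 and 3.23 in pool 2, and its difference was 0.39 without KO pool 1. Sgk2 was at 0.22. The dim genes Hsd11b2, Dusp5 and Tsc22d4 did not pass the brightness filter.

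**Figure D5:**
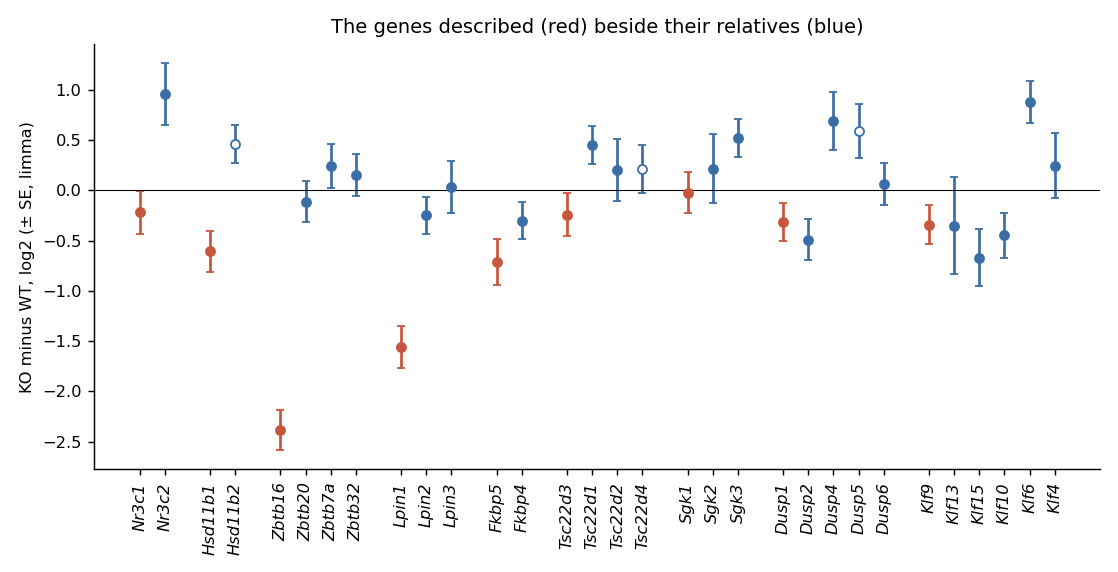
KO minus WT (log2, vertical axis, whiskers are the SE of the limma fit) for the 9 genes with listed relatives (red) and those relatives (blue), grouped by family; open points are genes too dim to be tested. Within the lipins the values are -1.56 for Lpin1, -0.25 for Lpin2 and 0.03 for Lpin3, and within the Sgk kinases Sgk1 is at -0.02 and Sgk3 at 0.52.

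The clock genes were set beside these results because several of the 10 genes are rhythmic. Of 17 listed clock genes 16 were tested, 7 above 0 and 9 below, with a median of -0.04. None was called by limma with either variance model, and 2 higher genes, Nr1d1 and Npas2, had an unadjusted p under 0.05, beside 6.37% of all tested genes. The repressor Nr1d1 read 5.19 and 5.03 in WT and 5.71 and 5.600 in KO (0.54 ± 0.19 SE; limma, adjusted p = 0.436). Npas2, an activator of the clock, read 0.51 and 0.34 in WT and 1.09 and 1.505 in KO. The WT mean of Npas2 stood at -0.12 relative to the table's median, so it passed the brightness filter only through the KO pools. The repressor Bhlhe41 was at -0.66 ± 0.27 and Ciart at -0.62 ± 0.33; with 1 pool left out they ranged from -0.98 to -0.33 and from -0.999 to -0.25. Dbp, a strongly rhythmic output gene, read 7.46 and 7.48 in WT and 7.297 and 7.52 in KO. The part of the hour of collection in the results was not tested.

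Zbtb16 is also a defining factor of innate-like T cells, so markers of T and NK cells were read beside it. Of 12 listed markers 11 were measured and 8 tested, 5 above 0 and 3 below, and none was called by limma. The lowest were Ccl5 at -0.51 and Cd3e at -0.42. Markers with an unadjusted p under 0.05 were Cd3g and Il2rb, both higher (6.37% of all tested genes); Il2rb, with a WT mean at -0.07 relative to the table's median, passed the brightness filter only through the KO pools. The markers' summed log2 level was 9.57 to 9.93 in the WT pools and 10.2 to 12.8 in the KO pools, and the part of these cells in the Zbtb16 difference was not tested. Of these markers 3 lay below the table's median probe set on every array. The 8 macrophage markers summed to 29.7 to 32.1 in WT and 31.0 to 31.5 in KO, with 6 of them above 0 (Trem2 at 1.30 and Cd68 at 0.72 among them) and Marco at -2.37.

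By distance between the 4 pool values, each gene centred on its own mean, the genes nearest in pattern to Zbtb16 were Marco (0.482), Clec2h (0.511) and Hsd3b5 (0.543). Marco, a scavenger receptor of macrophages, read 2.63 and 3.53 in WT and 0.76 and 0.66 in KO. Clec2h, a C-type lectin, and Hsd3b5, a hydroxysteroid dehydrogenase typical of male liver, differed by -2.81 ± 0.21 and -2.61 ± 0.33 (SE). Nearest to Lpin1 were Slc22a28 (0.1998), a transporter of the organic ion family, Lysmd1 (0.214) and Nnmt (0.219), which methylates nicotinamide. Slc22a28 read 5.33 and 5.43 in WT and 3.65 and 3.72 in KO, and Nnmt 2.31 and 2.35 in WT and 0.55 and 0.72 in KO. Lysmd1 differed by -1.46, or by -0.66 with its probe sets averaged. Lpin1 itself ranked 13 in likeness to Zbtb16, at a distance of 0.846, while Zbtb16 ranked 152 in likeness to Lpin1. With 4 pools such distances mostly reflect the size of the genotype difference.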

How the data were processed

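Expression was measured on 4 arrays, 1 for each pool of liver RNA (2 WT, 2 Nrg4 KO), from 400 ng of RNA each, per the labels' protocols. The deposited values are log2 expression values of 41345 probe sets; oligo, RMA and limma were used per the submitters' processing notes, with no version, build or annotation stated there. RMA corrects background, equalises arrays and summarises probes. The scale's zero point is unknown (values reach -1.12), direction and centring were read as deposited (log2, not centred per gene), and the array medians were 0.52, 0.56, 0.64 and 0.53. Folds of dim genes are compressed. The number of arrays limits the precision, and no detection calls, slides or scan dates were used here.

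From these, 23521 probe sets were paired with 1 symbol, 1814 with several and 16010 with none; the last groups were left out. Entrez identifiers of 23328 were found in the RefSeq gene table (GRCm38.p6), which changed no symbol. The probe set with the highest mean was kept for each gene, and tested genes had a mean of at least 0.54, the table median. The genotypes were compared by limma 3.58.1 (lmFit, eBayes; R 4.3.3; statmod 1.5.0) without covariates, with Benjamini-Hochberg adjustment over 12458 genes and a threshold of 0.05. The procedure was tested on simulated data, drawn as limma's own model assumes. That test cannot say how the procedure behaves on these pools. SE are those of limma and n is 2 pools. The eBayes step draws each gene's variance towards a value shared by all genes (3.67 prior against 2 residual degrees of freedom). SE and p-values thus rest on this moderated spread, not on a gene's own pools alone. An exact permutation of 2 against 2 cannot go below 0.333. The 10 genes, the lists and the rule for named genes were chosen with earlier results of these data known. Named are Nrg4, the 10 genes, the 4 genes of each list with the smallest p, relatives of the 10 genes and the 3 genes nearest in pattern to Zbtb16 and to Lpin1. H6pd, Serpina6, Per1 and Dbp were named after their values were seen. Same-numbered pools were not paired: their deviations from the group means correlated at -0.04 across genes.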

Additional observations from a re-analysis of the deposited data

How the results depend on the processing

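The differences of the 10 genes were recomputed under 12 alternatives. The filters, the averaging of probe sets, the variance models and the replicate block cannot change these differences, so their values repeat the main ones. Only the normalizations and the fits with 1 pool left out could move them. Of all 120 values, repeats included, 118 were below 0. The 2 above 0 were both of Sgk1, at 0.11 (WT pool 1 left out) and 0.02 (KO pool 2 left out). The median of the 10 genes was -0.37 with quantile normalization, -0.43 with arrays centred on their medians and -0.49 to -0.37 with 1 pool left out. By limma, 4 of the alternatives called Zbtb16 (centred arrays, no filter on dim genes, a stricter filter and a variance that follows intensity). The last of these also called Lpin1. Both genes were chosen with this comparison known, so nothing is read from these calls. Genes called over the whole table were 3 higher and 3 lower, against 49 and 87 with a variance that follows intensity and 0 and 0 without any 1 pool, where 906 to 1314 genes had an unadjusted p under 0.05. With the replicate number as a block, 0 genes were higher (754 at an unadjusted p under 0.05, limma) and 2 lower, the median of the 10 genes was the same -0.38, and no list median changed; the pools share only a number, and that fit leaves 1 residual degree of freedom in place of 2.

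List medians moved as follows; the causes were not tested. The receptor machinery was at 0.035 with quantile normalization and -0.09 to 0.02 with 1 pool left out, and other receptor targets at -0.10 with quantile normalization and -0.26 to -0.16 with 1 pool left out. Glycerolipid steps were at -0.067 with quantile normalization, 0.026 with probe sets averaged and -0.24 to -0.066 with 1 pool left out. Clock genes were at -0.11 to 0.088 with 1 pool left out. Relatives were at 0.10 with centred arrays, 0.21 with no filter on dim genes, 0.046 with a stricter one (the genes counted change) and -0.033 to 0.091 with 1 pool left out.

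Among 41 other named genes, 10 of 484 values changed sign. Lpin3 was at -0.054 with quantile normalization, -0.017 with centred arrays and -0.27 to 0.33 with 1 pool left out. With 1 pool left out, Dusp6 lay at -0.10 to 0.23, Klf4 at -0.19 to 0.68, Tsc22d2 at -0.19 to 0.60, Sgk2 at -0.23 to 0.66 and Klf13 at -1.09 to 0.39. Clec2h, called by limma in all 4 pools, was not called without any 1 pool or with the block, and a variance that follows intensity added calls of Pck1, Marco, Hsd3b5, Slc22a28 and Nnmt.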
